A study of Mus musculus with 7 samples.

Results

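The 39 HOX genes of the mouse were taken from the deposited table of 43629 genes as the rows whose Ensembl identifier carries a symbol of Hoxa, Hoxb, Hoxc or Hoxd followed by a number, a choice by name that uses no measured value. They lie in 4 clusters of the GRCm38 (mm10) genome: Hoxa with 11 members (on chr6), Hoxb with 10 (chr11:96194316-96368256), Hoxc with 9 (chr15:102921103-103036852) and Hoxd with 9 (chr2:74668310-74765142). RNA was sequenced from 7 libraries of E14 mouse embryonic stem (ES) cells, a line of 129/Ola background derived from the blastocyst, and of cells made from them. Ago2-knockout ES cells kept undifferentiated in 15% serum with 100 U/mL LIF (KO ESC) gave 3 libraries. They are labelled C4, 5-3_1 and 5-3_2, for 2 knockout lines named C4 and 5-3. Wild-type cells taken through 5 days of differentiation towards extra-embryonic endoderm (XEN) gave 2 libraries, A and B (WT XEN). The medium held 15% serum, activin A at 10 ng/mL and all-trans retinoic acid at 0.1 µM. Ago2-knockout cells taken through the same treatment gave 2 libraries, C4 and 5-3 (KO XEN). Ago2 encodes an Argonaute protein that binds microRNAs and can cut matched transcripts. Wild-type ES cells are not analysed here, so both groups after differentiation are set against knockout ES cells. WT XEN therefore differs from KO ESC in genotype as well as in state, which cannot be told apart.

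HOX genes encode homeodomain transcription factors that give cells their position along the head-to-tail axis. Within a cluster the genes stand in the order of their paralog number: members of group 1 at the 3′ end act in the hindbrain and neck, and members of group 13 at the 5′ end in the tail, digits and genital region. In ES cells the clusters are held silent by Polycomb proteins, and retinoic acid opens them from the 3′ end. HOX proteins bind DNA together with partners of the PBX, MEIS and PKNOX families. The clusters also hold microRNA genes, and extra-embryonic endoderm is not a tissue known for expression of the whole HOX series.

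The microRNAs of the clusters are shown first because Argonaute proteins carry them and several HOX transcripts hold matches to them. The mature sequences below, from RefSeq on GRCm38.p6, have the seed (bases 2 to 8) in capitals. They are the miR-10 and miR-196 arms known to target HOX transcripts; miR-615, whose gene lies within Hoxc, is not shown. By seed they form 2 families, miR-10 (genes within Hoxb and Hoxd) and miR-196 (genes within Hoxa, Hoxb and Hoxc), and members of a family differ by 1 base outside the seed.
mmu-miR-10a-5p: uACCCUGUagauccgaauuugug
mmu-miR-10b-5p: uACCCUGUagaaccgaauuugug
mmu-miR-196a-5p: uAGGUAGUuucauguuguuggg
mmu-miR-196b-5p: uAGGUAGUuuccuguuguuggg
The last exon of Hoxb8 holds, in its 3′ untranslated region at chr11:96284888-96284909 on the plus strand, the site textbooks give as cut by an Argonaute protein loaded with miR-196. It is printed 5′ to 3′ with the bases facing the seed in capitals.
Hoxb8 site: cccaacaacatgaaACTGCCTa
Set against miR-196a-5p without gaps, 21 of the 22 bases formed Watson-Crick pairs and the remaining 1 a G-U wobble, and against miR-196b-5p 20 and 1. The next best window among the 3′ untranslated regions of all 39 HOX genes, in Hoxd8, had 15 and 3. These libraries are of long RNA and do not measure the mature microRNAs.

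Depth and labels bear on the values that follow. Among KO XEN, the library labelled C4 had 13941826 counts in total and 5-3 had 33389566; WT XEN had 36427340 and 38595537, and KO ESC 39998808 to 48650113. Levels are in CPM, counts per 1000000 of the TMM-scaled library size. Parentheses after a gene give the log2 fold change of KO XEN over WT XEN ± its standard error, with the adjusted p, unless another pair is named. Ago2 stood at 9.37 and 9.65 CPM in the 5-3 libraries of KO ESC and 9.94 CPM in KO XEN 5-3, but at 94.4 and 122 CPM in the libraries labelled C4, against 394 and 432 CPM in WT XEN. The transcript level thus bears out the knockout label in 5-3 but not to that extent in C4, and the counts of calls are also given without both C4 libraries, for gene lists, clusters and paralog groups as an alternative chosen after seeing the data. Where 3 values are listed for KO ESC they are C4, 5-3_1 and 5-3_2, those of WT XEN are A and B, and those of KO XEN are C4 and 5-3.

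HOX transcripts were scarce in ES cells and plentiful after differentiation, most of all in the knockout. All 39 genes together held 6.12, 8.6 and 8.23 CPM in KO ESC, 219 and 168 CPM in WT XEN and 769 and 840 CPM in KO XEN. The 3 groups did not overlap in this sum. A level of at least 1 CPM was reached by 2, 3 and 3 HOX genes in the KO ESC libraries, 31 and 27 in WT XEN and 36 and 35 in KO XEN. Of the 39, 38 passed the filter on low counts and were tested. The exception, Hoxd12, a gene of limb and genital development, had 2 and 1 counts in KO XEN, none in WT XEN and 1 over all of KO ESC.

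**Figure D1:**
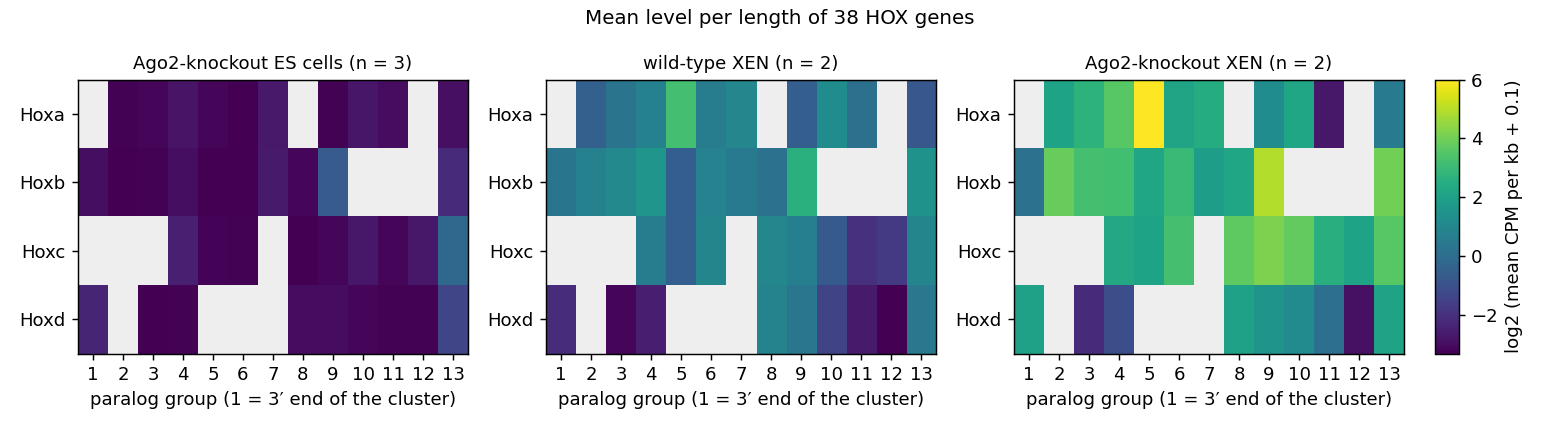
Mean level of 38 HOX genes per kilobase of exon, as log2 (CPM per kb + 0.1), in the 3 groups. Rows are clusters and columns are paralog groups, 1 at the 3′ end. Pale cells hold no gene or the 1 member not reported here. Hoxa5 is at 9.11 CPM per kb in WT XEN, and in KO XEN most cells of all 4 clusters are bright, led by Hoxa5 at 63 CPM per kb. The darkest genes in KO XEN are Hoxd12, Hoxa11, Hoxd3 and Hoxd4.

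The comparison of KO XEN with KO ESC asks what differentiation did to the clusters in knockout cells. Of the 38 tested genes, 37 rose, against 34.8% of all 18426 genes tested called higher and 34.3% called lower, 69.0% in all (edgeR quasi-likelihood, adjusted p below 0.05 after Benjamini-Hochberg), and 37 rose also without both C4 libraries. The median log2 fold change of the 38 was 7.77, or 7.55 with genes at 0 counts in KO ESC set to their lower bound, beside -0.08 over all genes. By cluster, 10 of 11 Hoxa, 10 of 10 Hoxb, 9 of 9 Hoxc and 8 of 8 tested Hoxd genes rose. Hoxa11, a gene of the forearm, kidney and uterus, did not pass (0.89 ± 1.11, adjusted p = 0.499 over KO ESC). Hoxd3 was too low to be tested without KO XEN 5-3, which left 36 rises. Hoxa6, Hoxb5, Hoxb6 and Hoxd3 had no count in any KO ESC library. Against a lower limit of 3 counts for the whole group they were at least 160-fold, 503-fold, 667-fold and 22.1-fold higher in KO XEN.

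In WT XEN most HOX genes were likewise above KO ESC. Of the 38 tested genes, 35 were higher in WT XEN, against 32.2% of all genes called higher and 30.3% called lower (edgeR quasi-likelihood test). Without both C4 libraries 35 were higher as well. The median log2 fold change was 5.27, beside -0.03 over all genes, and 5.36 over 37 genes with bounds, Hoxd3 being left out because neither group was above 3 counts. Hoxc12 (1.90 ± 0.80, adjusted p = 0.0703), Hoxd1 (0.41 ± 0.58, adjusted p = 0.553) and Hoxd3 (3.69 ± 1.69, adjusted p = 0.104) did not pass, and Hoxd11 (3.77 ± 0.92, adjusted p = 0.00769) lost its call without WT XEN A. Both comparisons use the same 3 KO ESC libraries, so they are not independent of each other.

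Of the clusters, Hoxa took 51.5 and 54.9% of HOX counts in WT XEN and 37.2 and 35.2% in KO XEN, whereas Hoxc took 12.3 and 13.5% and 22.7 and 26.4%. Hoxd contributed 4.7 and 7.56% and 5.33 and 5.48%. The 4 highest members by mean CPM held 47.4 and 51.6% of HOX counts in WT XEN and 40.6 and 35.2% in KO XEN. A cluster's share can therefore rest on few members.

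How the genotypes differed after the same treatment is shown by KO XEN against WT XEN. Of the 38 tested HOX genes, 31 were higher in KO XEN, 1 was lower and 6 did not pass, against 22.3% of all genes called higher and 23.9% called lower (edgeR, Benjamini-Hochberg adjusted p below 0.05, as for every adjusted p that follows). The median log2 fold change was 2.37, beside 0.00 over all genes. Without both C4 libraries 27 were called higher and 0 lower, and 21 of the 31 higher calls passed under each alternative tried. Each of the other 10 lost its call when some single library was left out: without WT XEN A it was lost by Hoxa6, Hoxa7, Hoxc4, Hoxd3, Hoxd4 and Hoxd8, and without WT XEN B by the same 6 and Hoxa9, Hoxb4 and Hoxb13. Without the KO XEN library labelled C4 it was lost by Hoxa6, Hoxa7, Hoxb4, Hoxc4, Hoxd3, Hoxd4 and Hoxd8, and without KO XEN 5-3 by Hoxa6, Hoxa7, Hoxa9, Hoxb13, Hoxd4, Hoxd8 and Hoxd10. Without KO ESC 5-3_2, Hoxa7 and Hoxd8 lost it, and without 5-3_1 Hoxd8 did. With all libraries kept, Hoxd3 and Hoxd4 lost it under the DESeq2 Wald test, and Hoxa7, Hoxd3 and Hoxd8 with no filter on low counts. By cluster the medians were 1.57 in Hoxa (7 of 11 higher), 2.27 in Hoxb (8 of 10), 2.78 in Hoxc (9 of 9) and 2.67 in Hoxd (7 of 8). By position, 10 of 12 genes of paralog groups 1 to 4, 10 of 11 of groups 5 to 8 and 11 of 15 of groups 9 to 13 were higher. Without both C4 libraries the higher calls were 7, 8, 8 and 4 in Hoxa to Hoxd, and 7, 8 and 12 over the 3 ranges, where 19.6% of all genes were called higher and 20.1% lower. With all libraries, the low-count filter kept Hoxc12, Hoxd1, Hoxd3, Hoxd4 and Hoxd11 through KO XEN alone and Hoxa11 through WT XEN alone. The counts of calls above include these genes and so depend on the filter. In bulk RNA a smaller number of cells that express a gene and less RNA per cell cannot be told apart.

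**Figure D2:**
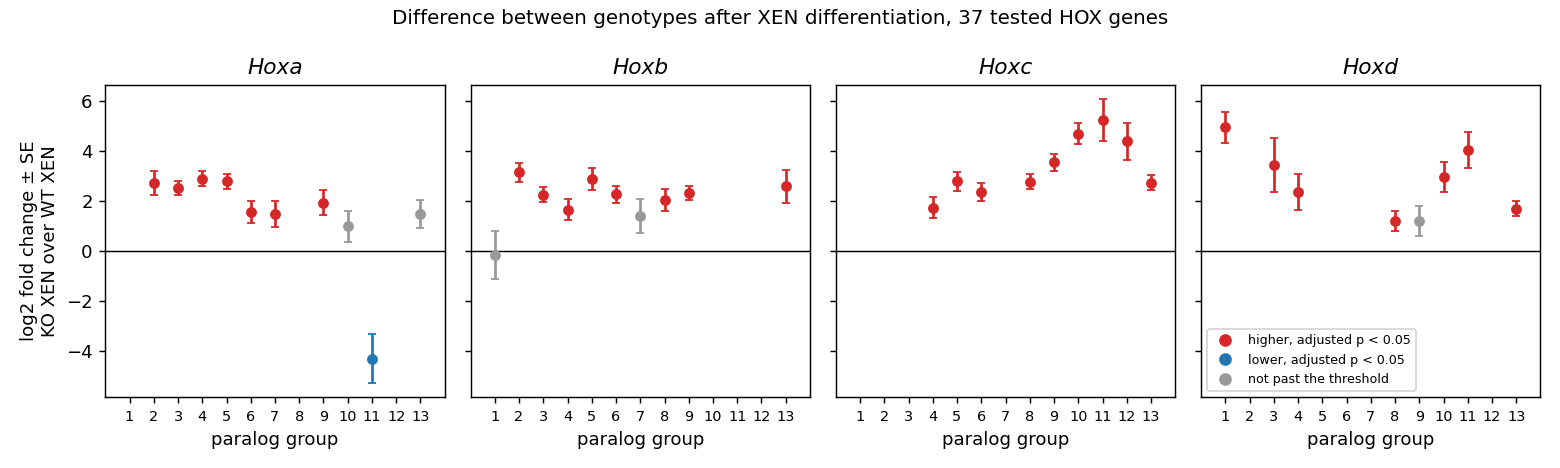
Log2 fold change of KO XEN over WT XEN (vertical axis, bars are ± 1 standard error of the edgeR fit) for 37 of the tested HOX genes by paralog group, 1 panel per cluster; red genes passed as higher, blue as lower, grey did not pass. In Hoxc the values run from 1.74 at Hoxc4 to 5.23 at Hoxc11 and are 2.72 at Hoxc13, Hoxb1 lies at -0.15, and Hoxa11 stands alone at -4.30.

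Markers of other cell types differed along with the HOX genes. Their calls in KO XEN against WT XEN stand beside 22.3% of all genes called higher and 23.9% called lower. The 10 markers of primitive endoderm and XEN cells summed to 30732 and 49020 CPM in WT XEN and 6417 and 7699 CPM in KO XEN, with 9 of 10 called lower in KO XEN, and 391, 384 and 384 CPM in KO ESC. The 8 visceral endoderm markers summed to 8941 and 8616 CPM and 11.3 and 118 CPM, with 8 of 8 lower. The 8 fibroblast and smooth muscle markers went the other way, from 1800 and 785 CPM in WT XEN to 10239 and 12621 CPM in KO XEN, with 6 of 8 higher and 1 lower. The 8 mesoderm markers summed to 18 and 10.4 CPM and 78.4 and 154 CPM, with 3 of 7 tested higher, through Twist1, Foxc1 and Foxc2, whereas T and Mesp1, which define early mesoderm, had no count in KO XEN. The 8 neural markers summed to 27.4 and 20 and 108 and 128 CPM, with 4 of 6 tested higher, and the 7 ES cell markers to 768 and 843 and 61.1 and 72.3 CPM, with 6 of 7 lower. Without both C4 libraries the calls were 8 of 10, 7 of 8 and 5 of 7 lower for the XEN, visceral endoderm and ES cell markers. They were 6 of 8, 3 of 7 and 3 of 6 higher for the fibroblast, mesoderm and neural markers. The part of these cell types in the HOX result was not tested.

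In the Hoxa cluster, the genes from Hoxa2 to Hoxa9 were higher in KO XEN. Hoxa2, which patterns the hindbrain and the jaw arches, was at 1.21 and 0.995 CPM in WT XEN and 6.82 and 7.81 CPM in KO XEN, from 0, 0.024 and 0 CPM in KO ESC (2.73 ± 0.48, adjusted p = 0.00287). Hoxa3, needed for thymus and parathyroid, was at 7.86 and 5.53 CPM in WT XEN and 34.5 and 42.1 CPM in KO XEN, from 0.048, 0.0961 and 0.0801 CPM in KO ESC (2.52 ± 0.28, adjusted p = 0.000417). Hoxa4, of the neck region, was at 2.88 and 2.21 CPM in WT XEN and 18.2 and 19.3 CPM in KO XEN, from 0.072, 0.048 and 0.0801 CPM in KO ESC (2.88 ± 0.30, adjusted p = 0.000346). In these 3 genes both KO XEN libraries lay above both WT XEN libraries, which lay above all 3 KO ESC libraries.

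Hoxa5 (ENSMUSG00000038253, chr6:52201754-52204587, minus strand), a gene of lung and upper thoracic patterning, reached the highest level of any HOX gene. It stood at 19.2 and 15 CPM in WT XEN and 124 and 112 CPM in KO XEN, from 0, 0.048 and 0 CPM in KO ESC. KO XEN was 6.78-fold above WT XEN in pooled CPM (2.79 ± 0.30, adjusted p = 0.000394), and the ratio of KO XEN to KO ESC, which had 2 counts in all, was 7725 (95% counting interval 2137 to 63804). Per length it held 63 ± 4.48 CPM per kb in KO XEN and 9.11 ± 1.57 CPM per kb in WT XEN (SD, n = 2 each). Next to it, Hoxa6, of thoracic identity, was at 1.37 and 1.11 CPM in WT XEN and 3.85 and 3.51 CPM in KO XEN, from 0, 0 and 0 CPM in KO ESC (1.57 ± 0.44, adjusted p = 0.0306). Hoxa7, likewise thoracic, was at 5.67 and 5.28 CPM in WT XEN and 16 and 14.8 CPM in KO XEN, from 0.024, 0.288 and 0.16 CPM in KO ESC (1.49 ± 0.52, adjusted p = 0.0468). Hoxa9, a regulator of blood progenitors, was at 4.19 and 2.35 CPM in WT XEN and 9.15 and 15.8 CPM in KO XEN, from 0, 0.024 and 0.04 CPM in KO ESC (1.93 ± 0.49, adjusted p = 0.0136). All 3 were higher in KO XEN with no overlap between genotypes.

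Towards the 5′ end of Hoxa, Hoxa10 and Hoxa11 parted from this order. Hoxa10, a gene of the uterus and the lumbar spine, was at 9.75 and 4.81 CPM in WT XEN and 9.22 and 19.5 CPM in KO XEN, from 0.024, 0.192 and 0.24 CPM in KO ESC, and did not pass (0.99 ± 0.61, adjusted p = 0.219). Hoxa11 (ENSMUSG00000038210, chr6:52242106-52245810, minus strand) stood at 3.56 and 0.94 CPM in WT XEN and 0.145 and 0.0923 CPM in KO XEN, from 0.024, 0.024 and 0.12 CPM in KO ESC. It was the 1 HOX gene lower in KO XEN (-4.30 ± 0.98, adjusted p = 0.00895), where both libraries lay below WT XEN and near the ES cells, and WT XEN A was well above B. The call was lost without both C4 libraries, without WT XEN A and without KO XEN 5-3. Over all alternatives the log2 fold change lay between -4.96 and -3.10. Hoxa11os, a non-coding RNA on the opposite strand that shares bases with Hoxa11, was at 1.51 and 0.359 CPM in WT XEN and 0.0726 and 0.0308 CPM in KO XEN, from 0, 0.024 and 0.04 CPM in KO ESC (-4.29 ± 1.13, adjusted p = 0.0162), and without the strand setting of the counting the reads of the pair cannot be told apart. The low-count filter kept Hoxa11 and Hoxa11os through WT XEN alone, the group where they were high, so their lower calls have little weight. Hoxa13, of digits and hindgut, was at 1.07 and 1.33 CPM in WT XEN and 2.32 and 4.4 CPM in KO XEN, from 0.048, 0.144 and 0.04 CPM in KO ESC, and did not pass (1.50 ± 0.56, adjusted p = 0.0583).

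**Figure D3:**
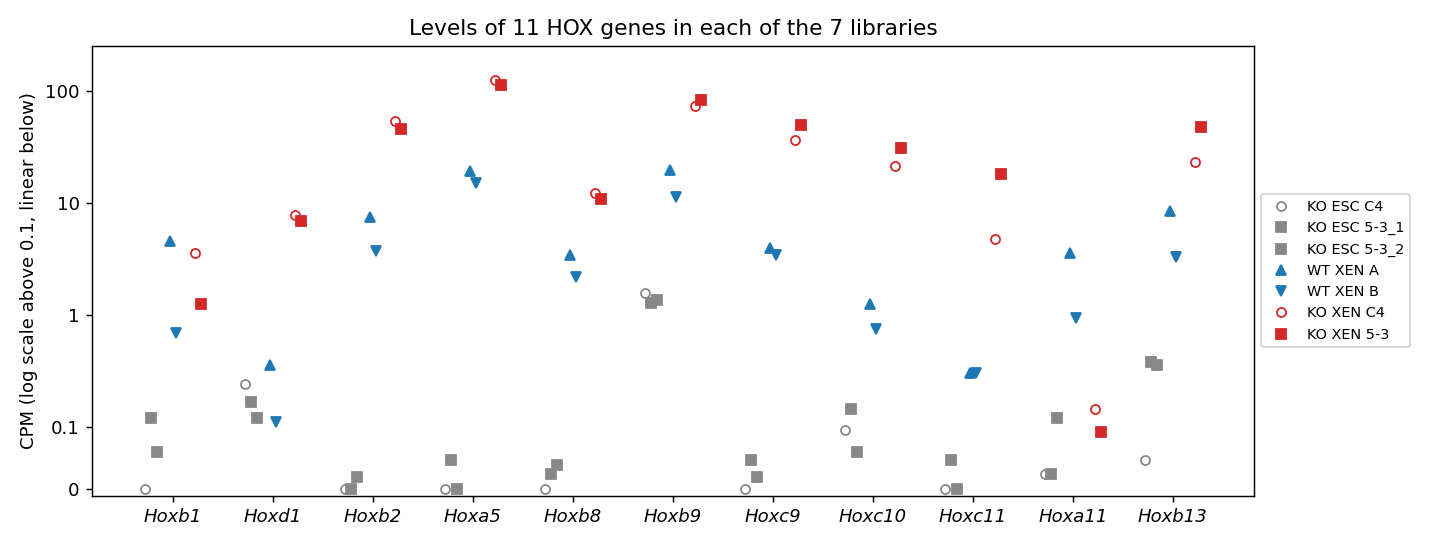
Level in CPM (vertical axis, logarithmic above 0.1 and linear below) of 11 HOX genes in each of the 7 libraries; grey points are KO ESC, blue WT XEN, red KO XEN, and open circles are the libraries labelled C4. Hoxd1 is near the ES level in WT XEN and at 7.77 and 6.83 CPM in KO XEN, and Hoxa11 is the gene whose red points lie below the blue.

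In the Hoxb cluster, Hoxb1, which marks a single segment of the hindbrain, did not pass between genotypes. It stood at 4.52 and 0.691 CPM in WT XEN and 3.56 and 1.26 CPM in KO XEN, from 0, 0.12 and 0.06 CPM in KO ESC. WT XEN A was far above B, the library labelled C4 was above 5-3, and the genotypes overlapped (-0.15 ± 0.97, adjusted p = 0.922). Hoxb2, of the hindbrain segments next to it, was at 7.48 and 3.73 CPM in WT XEN and 53.2 and 45.7 CPM in KO XEN, from 0, 0 and 0.02 CPM in KO ESC (3.14 ± 0.39, adjusted p = 0.000637), and its ratio of KO XEN to KO ESC, with 1 count in KO ESC, was 6390 (95% counting interval 1146 to 252513). Hoxb3 was at 9.07 and 7.69 CPM in WT XEN and 41.1 and 39.4 CPM in KO XEN, from 0, 0.024 and 0.04 CPM in KO ESC (2.26 ± 0.30, adjusted p = 0.000806). Hoxb4, known for expanding blood stem cells, was at 8.47 and 5.86 CPM in WT XEN and 25 and 20.5 CPM in KO XEN, from 0.024, 0.144 and 0.04 CPM in KO ESC (1.66 ± 0.41, adjusted p = 0.012). All of these but Hoxb1 separated the 3 groups without overlap.

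Hoxb5, which acts in enteric neural crest, had no count in KO ESC and stood at 2.08 and 1.22 CPM in WT XEN and 14.1 and 10.2 CPM in KO XEN (2.87 ± 0.45, adjusted p = 0.00365). Hoxb6, a gene of lateral plate mesoderm, had none either and stood at 3.45 and 2.99 CPM in WT XEN and 16.8 and 14.2 CPM in KO XEN (2.27 ± 0.33, adjusted p = 0.00272). In WT XEN they were at least 73.4-fold and 143-fold above KO ESC, against the same limit of 3 counts. Hoxb7 was at 2.6 and 1.58 CPM in WT XEN and 5.74 and 5.32 CPM in KO XEN, from 0, 0.12 and 0.16 CPM in KO ESC, and did not pass between genotypes (adjusted p = 0.131). Both KO XEN values were above both WT XEN values, by 2.6-fold in pooled CPM. Hoxb8 (ENSMUSG00000056648, chr11:96281905-96285315, plus strand), whose miR-196 site is printed above, was at 3.4 and 2.16 CPM in WT XEN and 12.1 and 10.9 CPM in KO XEN, from 0, 0.024 and 0.04 CPM in KO ESC (2.04 ± 0.44, adjusted p = 0.00688). KO XEN was 4.03-fold above WT XEN in pooled CPM, close to the median of the Hoxb genes on the log2 scale (2.27). Of its neighbours on the chromosome, Hoxb9 had a log2 fold change of 2.33, whereas Hoxb7, as given above, did not pass; the difference of Hoxb8 from them was not tested.

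Hoxb9, of the thoracic region, was already present in ES cells and stood at 19.6 and 11.2 CPM in WT XEN and 72.9 and 81.8 CPM in KO XEN, from 1.56, 1.27 and 1.36 CPM in KO ESC (2.33 ± 0.28, adjusted p = 0.000552). Per length it held 5.98 ± 2.29 CPM per kb in WT XEN and 30.1 ± 2.45 CPM per kb in KO XEN (SD, n = 2 each). Hoxb13, which lies far upstream of the rest of the cluster and is a gene of tail and prostate, was at 8.44 and 3.29 CPM in WT XEN and 23.1 and 47.6 CPM in KO XEN, from 0.048, 0.384 and 0.36 CPM in KO ESC (2.59 ± 0.66, adjusted p = 0.0141). KO XEN 5-3 was above the library labelled C4.

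All 9 Hoxc genes were higher in KO XEN, with the largest log2 fold changes at Hoxc10, Hoxc11 and Hoxc12. Hoxc4 was at 3.59 and 3.76 CPM in WT XEN and 14.3 and 10.4 CPM in KO XEN, from 0.192, 0.288 and 0.1 CPM in KO ESC (1.74 ± 0.41, adjusted p = 0.00967). Hoxc5 was at 1.92 and 1.77 CPM in WT XEN and 16.8 and 8.74 CPM in KO XEN, from 0.024, 0.024 and 0.02 CPM in KO ESC (2.78 ± 0.39, adjusted p = 0.00109), and its shift was larger than that of Hoxc4 in value, which was not tested. Hoxc6, a thoracic gene, was at 4.82 and 3.95 CPM in WT XEN and 18.9 and 26.4 CPM in KO XEN, from 0, 0 and 0.02 CPM in KO ESC (2.37 ± 0.36, adjusted p = 0.00142). Hoxc8, which specifies motor neurons of the forelimb level, was at 5.53 and 5.17 CPM in WT XEN and 31.5 and 41.7 CPM in KO XEN, from 0, 0 and 0.02 CPM in KO ESC (2.77 ± 0.31, adjusted p = 0.000455). Hoxc9, which represses the forelimb programme in thoracic motor neurons, was at 3.97 and 3.43 CPM in WT XEN and 36.4 and 49.5 CPM in KO XEN, from 0, 0.048 and 0.02 CPM in KO ESC (3.54 ± 0.35, adjusted p = 0.000301). Each separated the 3 groups without overlap, a description of the values above and not a further test.

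Hoxc10, a gene of the lumbar level and the hindlimb, was at 1.26 and 0.747 CPM in WT XEN and 21.1 and 31 CPM in KO XEN, from 0.096, 0.144 and 0.06 CPM in KO ESC. KO XEN was 27.9-fold higher in pooled CPM (4.69 ± 0.42, adjusted p = 0.000229). Hoxc11 was at 0.301 and 0.304 CPM in WT XEN and 4.72 and 18.1 CPM in KO XEN, from 0, 0.048 and 0 CPM in KO ESC, and had the largest log2 fold change of the 38 genes with all libraries (5.23 ± 0.84, adjusted p = 0.00188). Its 2 KO XEN values differed, with 5-3 above the library labelled C4. Without 5-3 the log2 fold change was 3.86, below the 4.30 of Hoxc10 and 4.95 of Hoxd1. Hoxc12 was at 0.301 and 0.111 CPM in WT XEN and 2.47 and 6.15 CPM in KO XEN, from 0.024, 0.0961 and 0.04 CPM in KO ESC, and was higher in KO XEN (4.38 ± 0.75, adjusted p = 0.00246). It passed the low-count filter through KO XEN alone, the group where it was high, so this call has little weight. Hoxc13, needed for hair and nails, was the highest HOX gene per length in KO ESC and stood at 5.26 and 3.54 CPM in WT XEN and 28.2 and 29.7 CPM in KO XEN, from 2.3, 1.63 and 1.76 CPM in KO ESC (2.72 ± 0.30, adjusted p = 0.000408). Over KO ESC its log2 fold change was 1.21 ± 0.26 in WT XEN (adjusted p = 0.00446) and 3.93 ± 0.27 in KO XEN (adjusted p = 9.58e-06).

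The Hoxd cluster had the smallest share of HOX counts in both XEN groups. Hoxd1, known from pain-sensing neurons, was at 0.356 and 0.111 CPM in WT XEN and 7.77 and 6.83 CPM in KO XEN, from 0.24, 0.168 and 0.12 CPM in KO ESC. WT XEN overlapped KO ESC, and KO XEN was 30.4-fold above WT XEN in pooled CPM (4.94 ± 0.61, adjusted p = 0.000616). Hoxd1 passed the low-count filter through KO XEN alone, the group where it was high, so this call has little weight. Its paralog Hoxb1 did not pass, and the difference between them was not tested. Hoxd3, of the first neck vertebra, had no count in KO ESC and stood at 0 and 0.0829 CPM in WT XEN and 0.436 and 0.523 CPM in KO XEN (3.45 ± 1.08, adjusted p = 0.0432). Its pooled ratio, from 3 counts in WT XEN, was 12 (95% counting interval 3.64 to 62.6). Hoxd4, of the hindbrain and neck, was at 0.164 and 0.249 CPM in WT XEN and 1.45 and 0.769 CPM in KO XEN, from 0.024, 0 and 0 CPM in KO ESC (2.37 ± 0.71, adjusted p = 0.0268). Only 37.7% of the exon length of Hoxd3 and 47.7% of that of Hoxd4 is free of other genes on the strand, since their annotated transcripts overlap, so both are uncertain. Hoxd3 also lost its call with line as a replicate block (edgeR adjusted p = 0.0593). The low-count filter kept Hoxd3 and Hoxd4 through KO XEN alone, the group where they were high, so their calls have little weight.

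Further 5′ in the cluster, Hoxd8 was at 3.64 and 5.78 CPM in WT XEN and 10.7 and 10.9 CPM in KO XEN, from 0.024, 0.072 and 0.1 CPM in KO ESC (1.20 ± 0.40, adjusted p = 0.0395). Hoxd9 was at 2.25 and 2.74 CPM in WT XEN and 6.97 and 4.65 CPM in KO XEN, from 0, 0.048 and 0.1 CPM in KO ESC, and did not pass (1.21 ± 0.59, adjusted p = 0.127). Hoxd10, of the lumbar level and the hindlimb, was at 0.575 and 0.442 CPM in WT XEN and 2.4 and 5.54 CPM in KO XEN, from 0, 0.024 and 0.02 CPM in KO ESC (2.97 ± 0.60, adjusted p = 0.00518). Hoxd11, which shapes the forearm together with Hoxa11, was at 0.329 and 0.166 CPM in WT XEN and 2.11 and 5.91 CPM in KO XEN, from 0.024, 0 and 0.02 CPM in KO ESC (4.02 ± 0.72, adjusted p = 0.00306). Here the pair parted, with Hoxd11 higher and Hoxa11 lower in KO XEN. The low-count filter kept Hoxd11 through KO XEN alone and Hoxa11 through WT XEN alone, so these calls have little weight. Hoxd13, of the digits, was at 2.99 and 3.18 CPM in WT XEN and 9 and 10.9 CPM in KO XEN, from 0.648, 0.769 and 0.7 CPM in KO ESC (1.69 ± 0.30, adjusted p = 0.00299), above ES cells in both differentiated groups.

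Along the clusters, the relation of level to paralog number differed from cluster to cluster. As a description across genes, which share libraries and are not replicates, Spearman's rho between paralog number and the log2 fold change of KO XEN over WT XEN was -0.42 in Hoxa (11 genes), 0.19 in Hoxb (10), 0.53 in Hoxc (9) and -0.31 in Hoxd (8). For the level per length in KO XEN it was -0.67 in Hoxa, 0.33 in Hoxb, 0.23 in Hoxc and 0.07 in Hoxd, over 11, 10, 9 and 9 genes. For the log2 fold change of WT XEN over KO ESC it was lowest in Hoxc (-0.70 over 9 genes). In these quantities no single order held in all 4 clusters, whereas for the log2 fold change of line C4 over 5-3 rho was -0.45, -0.62, -0.50 and -0.50 in Hoxa to Hoxd.

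Between the 2 knockout lines no HOX gene passed the threshold. With line as a term beside the 3 groups, the edgeR quasi-likelihood test called 0 of 38 HOX genes in either direction, where 0.0760% of all genes were called, 0.0543% and 0.0217% as higher and lower in C4. DESeq2 called 0 as well. At an unadjusted p below 0.05, 3 were lower in the libraries labelled C4: Hoxc11 (-1.97 ± 0.61, adjusted p = 0.382), Hoxa10 (-1.43 ± 0.52, adjusted p = 0.459) and Hoxb13 (-1.43 ± 0.55, adjusted p = 0.488). The median over the 38 was -0.27, and over the 15 tested genes of paralog groups 9 to 13 it was -0.90, with values above 0 in 2 of them. Groups 1 to 4 and 5 to 8 had medians of -0.03 and -0.08. The Ago2 transcript, the label check, was higher in C4 as given above.

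MicroRNA seed matches were spread over the clusters. The 7-base match to the miR-196 seed, ACTACCT, was found in the 3′ untranslated region of 9 of the 38 tested HOX genes (23.7%; among them Hoxa5, Hoxb6 and Hoxc8), against 7.35% of 15192 genes with an annotated region, whose median length was 1131 bases against 966 in HOX genes. The site of Hoxb8 is not among them because its facing bases hold the wobble. The genes with the match had a median log2 fold change of 1.93 in KO XEN over WT XEN, with 6 of 9 higher, and the 29 without it 2.52, with 25 higher. Of all genes tested 22.3% were called higher, and the difference between HOX genes with and without the match was not tested. The match to the miR-10 seed, ACAGGGT, was in 4 (10.5%), against 15% of all, with medians of 2.39 with and 2.37 without it. A match is a string of letters and not a measured site.

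Promoters were read from RefSeq (GRCm38.p6) as 250 bases before to 50 after a start, which gave 24 promoters for 22 of the 39 genes. The motif TGATNNAT, the composite site of PBX and HOX proteins, was searched on both strands and found in 4 of them (16.7%; Hoxa2, Hoxb1, Hoxb8 and Hoxd11) against 8.85% of 32851 promoters. Direct repeats bound by retinoic acid receptors were searched as 2 units on the same strand, each being AGGTCA, the variant AGTTCA, the variant GGGTCA or the variant GGTTCA. They were in 0 HOX promoters at a spacing of 2 or of 5 bases, and in 0.268% and 0.0974% of all promoters. At rates this low, 0 among 24 promoters was likely for any genes, and bases outside the window were not searched. The median ratio of observed to expected CpG was 0.63 in HOX promoters and 0.38 in all. The Hoxb1 sequence is shown because the textbook example of a HOX autoregulatory element lies there and Hoxb1 is 1 of the 6 HOX genes that did not pass between genotypes. It is the stretch before the start, chr11:96365508-96365751 on the plus strand, with the match in capitals.
Hoxb1 upstream: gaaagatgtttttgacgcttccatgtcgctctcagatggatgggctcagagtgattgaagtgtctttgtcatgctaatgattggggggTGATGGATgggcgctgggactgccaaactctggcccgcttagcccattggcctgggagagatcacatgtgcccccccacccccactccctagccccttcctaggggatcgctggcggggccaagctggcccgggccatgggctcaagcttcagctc

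The partners of HOX proteins were also higher in KO XEN. Of 9 PBX, MEIS and PKNOX genes, 7 were higher and 2 did not pass, with a median log2 fold change of 1.47. Of all genes, 22.3% were called higher, and without both C4 libraries the cofactors again had 7 higher calls. Pknox2 was at 4.88 and 3.73 CPM in WT XEN and 41.3 and 66.2 CPM in KO XEN (3.64 ± 0.30, adjusted p = 0.000196). Meis2, itself induced by retinoic acid in many cells, was at 62.2 and 45.4 CPM in WT XEN and 225 and 295 CPM in KO XEN (2.27 ± 0.22, adjusted p = 0.000268). Pbx2 was at 60.9 and 59.7 CPM in WT XEN and 150 and 184 CPM in KO XEN (1.47 ± 0.18, adjusted p = 0.000551). In each the genotypes did not overlap, which is no further support, since these genes were named by the smallest adjusted p. Summed over the 9 genes, the level was 111, 109 and 110 CPM in KO ESC, 391 and 344 CPM in WT XEN and 1044 and 1273 CPM in KO XEN.

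Genes of the retinoid pathway, which carries the signal of the added retinoic acid, were higher in 11 of 17 tested cases (64.7%) and lower in 1 (5.88%), against 22.3% and 23.9% of all genes. Without both C4 libraries 9 were higher and 1 lower. Rara, a retinoic acid receptor, was at 33.9 and 29.7 CPM in WT XEN and 79.6 and 98.1 CPM in KO XEN (1.48 ± 0.18, adjusted p = 0.000624). Dhrs3, which reduces retinaldehyde, was at 117 and 117 CPM in WT XEN and 351 and 472 CPM in KO XEN (1.81 ± 0.26, adjusted p = 0.00115). Cyp26a1, the main enzyme that breaks down retinoic acid, went the other way at 659 and 1004 CPM in WT XEN and 82.2 and 94.2 CPM in KO XEN (-3.24 ± 0.30, adjusted p = 0.000263). Its ES cell levels of 0.12, 0.36 and 0.24 CPM were far below both.

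Of 13 known regulators of the clusters tested, 4 were higher (30.8%) and 3 lower (23.1%), with or without both C4 libraries, near the 22.3% and 23.9% of all genes. Gdf11, a signal that sets the posterior HOX domain, was at 6.69 and 6.69 CPM in WT XEN and 38.6 and 48.5 CPM in KO XEN (2.70 ± 0.26, adjusted p = 0.000268). Zic1, a zinc finger factor, was at 0.849 and 0.442 CPM in WT XEN and 6.97 and 8.12 CPM in KO XEN (3.54 ± 0.47, adjusted p = 0.000861). Lin28a, an RNA-binding protein gene, was at 159 and 287 CPM in WT XEN and 17.2 and 7.75 CPM in KO XEN (-4.18 ± 0.43, adjusted p = 0.000347). Its paralog Lin28b moved the other way, at 2.85 and 2.21 CPM in WT XEN and 24.1 and 13.7 CPM in KO XEN (2.89 ± 0.33, adjusted p = 0.000495). Cdx2 and Cdx4, caudal genes that drive central and posterior HOX genes in the embryo, had no count in KO XEN. Cdx4 had none in WT XEN either, and Cdx2 stood at 0.356 and 1.16 CPM in WT XEN (adjusted p = 0.013). Of 21 Polycomb group genes and their demethylases, 8 were higher and 8 lower (38.1% each, against 22.3% and 23.9% of all genes), or 8 and 6 without both C4 libraries. Among the core subunits of the complex that methylates lysine 27 of histone H3, Suz12 was at 154 and 206 CPM in WT XEN and 34.7 and 42 CPM in KO XEN (-2.23 ± 0.21, adjusted p = 0.000266). Ezh2 was at 79.8 and 103 CPM in WT XEN and 36.9 and 38.2 CPM in KO XEN (-1.28 ± 0.17, adjusted p = 0.00078). Phc1, of the other Polycomb complex, was higher at 34.4 and 30 CPM in WT XEN and 67.4 and 66.2 CPM in KO XEN (1.05 ± 0.14, adjusted p = 0.00089), as was Phc2 at 84.7 and 59.2 CPM in WT XEN and 198 and 239 CPM in KO XEN (1.60 ± 0.23, adjusted p = 0.00112).

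**Figure D4:**
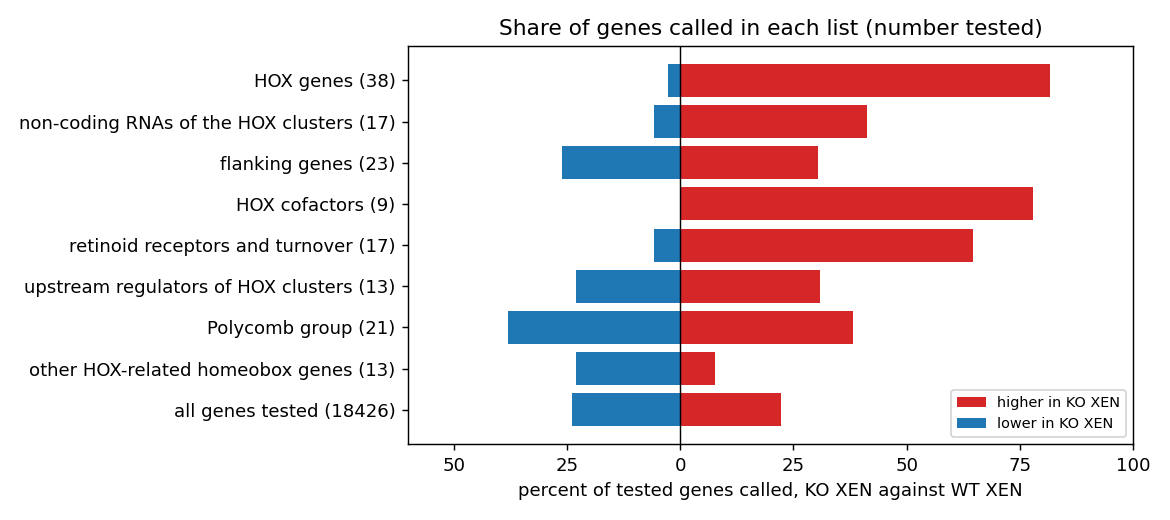
Percent of tested genes in each list that were called in KO XEN against WT XEN (horizontal axis; red bars to the right are higher, blue bars to the left lower), with the number tested in brackets and all 18426 genes at the bottom. HOX genes (31 of 38) and their cofactors (7 of 9) have the longest red bars, against 22.3% of all genes, and Polycomb genes are split evenly.

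The annotation places 46 other genes within the clusters, most of them non-coding RNAs, of which 17 had enough counts to test. A gene could pass the low-count filter through 1 group alone, so the counts of calls depend on the filter. Of these, 7 were higher in KO XEN, 1 was lower (Hoxa11os) and 9 did not pass. These are 41.2% higher and 5.88% lower, against 22.3% and 23.9% of all genes, and without both C4 libraries 5 of 18 tested were higher and none passed as lower. Haglr, of the Hoxd cluster, was at 0.329 and 0.138 CPM in WT XEN and 2.18 and 3.66 CPM in KO XEN (3.64 ± 0.61, adjusted p = 0.00226). Hoxb5os was at 0.767 and 0.249 CPM in WT XEN and 6.75 and 7.51 CPM in KO XEN (3.80 ± 0.63, adjusted p = 0.00467). Gm53, of the Hoxb cluster, was at 15 and 7.52 CPM in WT XEN and 44.5 and 49.1 CPM in KO XEN (2.05 ± 0.42, adjusted p = 0.00535), and Hoxaas3 at 0.904 and 1.19 CPM in WT XEN and 4.5 and 9.91 CPM in KO XEN (2.79 ± 0.57, adjusted p = 0.0055). All 4 separated the genotypes, which is no further support, since they were named by the smallest adjusted p. Named after its values were seen, Hotair, the non-coding RNA between Hoxc11 and Hoxc12, had 0 counts in all KO ESC and WT XEN libraries and 7 and 18 counts in KO XEN. It passed the low-count filter through KO XEN alone, the group where it was high, so its test gives no support. Hotairm1, of the Hoxa cluster, also named after its values were seen, stood at 4.9 and 5.03 CPM in WT XEN and 4.72 and 5.48 CPM in KO XEN (0.04 ± 0.44, adjusted p = 0.955) and did not pass.

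Hoxa5 had the highest mean CPM of the HOX genes over the 4 differentiated libraries, and the 5 other genes whose log2 (CPM + 1) followed it most closely over the 7 libraries were Svep1 (Pearson's r 0.9998), Ctso (0.9996), Foxf1 (0.9995), Arid1b (0.9994) and Col4a5 (0.9993). These values describe 7 libraries in 3 groups and carry no p. Svep1, an extracellular matrix gene, was at 24.8 and 18.1 CPM in WT XEN and 161 and 142 CPM in KO XEN, from 0.048, 0.024 and 0.0801 CPM in KO ESC. Foxf1, a factor of visceral mesenchyme, was at 6.06 and 4.34 CPM in WT XEN and 19.1 and 17.9 CPM in KO XEN, from 0, 0.024 and 0.06 CPM in KO ESC. Both share with Hoxa5 the order of the 3 groups, which follows from choosing them by their correlation with it.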

How the data were processed

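Read counts per Ensembl gene were deposited by the authors for 43629 genes in 7 libraries, as whole numbers without normalization. The submitters' processing notes name STAR 2.4.2a, featureCounts 1.4.5-p1 and the mm10 build. The protocol was reverse-stranded per the labels. Whether counting used strand, which annotation it used and how it treated multi-mapping reads are not given in the sources used here, so antisense and paralogous genes are uncertain. The sum of a library's counts is its depth; the shallowest, KO XEN C4, holds 13941826.

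Symbols, exons and positions came from GENCODE release M21 (GRCm38), which matched 42548 identifiers; the 1081 without a match held 0.136% of counts and stayed in the tests. All 7 libraries entered 1 quasi-likelihood fit with 3 groups in edgeR 4.0.16 (R 4.3.3, limma 3.58.1), after TMM scaling. The filterByExpr filter by group kept 18426 genes, and 4 residual degrees of freedom remained. A call is an adjusted p (Benjamini-Hochberg) below 0.05. Levels per length divide CPM by the merged exon length. Floors are 3 counts over a group, and the 95% intervals of count ratios are exact; both cover counting error only. Nothing states that replicate libraries are separate cultures, so p-values measure only their spread, which may be technical. Alternatives were DESeq2 1.42.0 and its size factors, no filter, only the groups compared, line as a replicate block, and leaving out libraries. Lines C4 and 5-3 pair KO ESC with KO XEN by label; the C4 difference from 5-3 correlated between both states with r of 0.0797 over genes. The fit was tested on simulated data.

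The members and lists were chosen with earlier results of these data known. Of the 39 members 38 are described; 1 member and some list genes are not reported here. Genes of other lists are named by the smallest adjusted p in KO XEN against WT XEN, up to 4 per list, unless marked. Of the listed regulators, Znf503 had no matching symbol.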

Additional observations from a re-analysis of the deposited data

How the results depend on the processing

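The counts of HOX genes called changed most with the libraries kept. In KO XEN against WT XEN, 31 were higher; leaving out 1 library gave 22 to 33, and the other settings 27 to 34 (no filter 28, both C4 libraries out 27, DESeq2 32, only the 2 groups 34). The 1 lower call, Hoxa11, became 0 without both C4 libraries, and with 1 library left out the count ran from 0 (without WT XEN A or KO XEN 5-3) to 1. In these cases fewer samples were fitted, and a lone library was taken to vary like the others. KO XEN against KO ESC gave 36 or 37 and WT XEN against KO ESC 33 to 36 higher calls under all alternatives. Hoxd1 in WT XEN against KO ESC ran from -0.61 (without WT XEN A) to 1.02 (without B) as a log2 fold change, and Hoxb1 in KO XEN against WT XEN from -1.05 (without the KO XEN library labelled C4) to 1.67 (without WT XEN A), with 0.36 without KO XEN 5-3; none passed the threshold.

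With line as a replicate block, a pairing by the labelled lines, the higher calls were 37, 36 and 31 in the 3 comparisons. Hoxd3 lost its call in KO XEN against WT XEN (adjusted p = 0.0593), Hoxa13 gained one (0.0478), and Hoxc12 gained one in WT XEN against KO ESC (0.0264); the block changed no other HOX call. Between the lines edgeR called 14 of 18426 genes and DESeq2 331, but 0 HOX genes by either. With 2 libraries in a group and HOX genes near 1 count in ES cells, folds against KO ESC are limited by counting error.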

Other observations

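Homeobox genes that share descent with the HOX clusters but lie elsewhere mostly did not pass between genotypes. Of 13 tested, 1 was higher, 3 were lower and 9 did not pass in KO XEN against WT XEN (edgeR quasi-likelihood test). The shares of 7.69% higher and 23.1% lower stand beside 22.3% and 23.9% of all genes, and the counts were again 1 and 3 without both C4 libraries. En1, of the midbrain and hindbrain border and the limb, was at 1.29 and 1.27 CPM in WT XEN and 7.48 and 7.32 CPM in KO XEN (log2 fold change 2.53 ± 0.43, adjusted p = 0.00239), whereas its paralog En2 was at 2.03 and 2.65 CPM in WT XEN and 0.29 and 0.246 CPM in KO XEN (-3.14 ± 0.43, adjusted p = 0.000959). Gbx1 was at 0.63 and 0.415 CPM in WT XEN and 0.218 and 0.123 CPM in KO XEN (-1.70 ± 0.56, adjusted p = 0.0372), and Cdx2 is described above.

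The 3 nearest coding genes on each side of each cluster were called in both directions. Of 23 tested, 7 were higher and 6 lower in KO XEN against WT XEN, with a median log2 fold change of 0.08. Those shares of 30.4% and 26.1% stand beside 22.3% and 23.9% of all genes, and without both C4 libraries 6 were higher and 5 lower. Calcoco1, next to Hoxc, was at 53 and 42.4 CPM in WT XEN and 246 and 304 CPM in KO XEN (2.53 ± 0.26, adjusted p = 0.00033), and Skap2, next to Hoxa, at 42.6 and 53.5 CPM in WT XEN and 109 and 96.5 CPM in KO XEN (1.10 ± 0.18, adjusted p = 0.00188). Tax1bp1, on the other side of Hoxa, was lower at 145 and 207 CPM in WT XEN and 55.3 and 57.6 CPM in KO XEN (-1.64 ± 0.19, adjusted p = 0.000491), as was Hnrnpa3 near Hoxd at 39.1 and 59.5 CPM in WT XEN and 14.9 and 17.1 CPM in KO XEN (-1.62 ± 0.24, adjusted p = 0.00139). Summed over the flanking genes the level was 1461 and 1705 CPM in WT XEN and 1766 and 2070 CPM in KO XEN.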
